A study of Mus musculus with 6 samples.

Results

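The TREM receptors are described here by the 6 genes of their cluster on mouse chromosome 17, Trem1, Trem2, Trem3, Treml1, Treml2 and Treml4, out of 55536 genes measured. They were matched from the Ensembl IDs of the tables to symbols by the mouse annotation GENCODE M21, and all 6 were found. The set was selected on values of this same contrast, the FPKM of its members, Treml4 above all, with RANKL and etelcalcetide against RANKL alone. The members' values are therefore a description, without p-values. The libraries are bulk RNA sequencing of RAW264.7, a mouse macrophage cell line from which bone-resorbing osteoclasts form under the cytokine RANKL. RANKL was present in all 6 libraries, at 50 ng/mL. The 3 libraries of the RANKL group had nothing more, and the 3 of the etelcalcetide group also had 4 µM etelcalcetide, a peptide that acts as an agonist of the calcium-sensing receptor CaSR. A library without RANKL was not analysed here. The sample labels give 5, 6 and 7 days of exposure for replicates 1, 2 and 3 of both groups, whereas the design text of the series gives 5 days for all. No label says that the replicates were separate cultures, so every error and p-value rests on a spread between libraries that may be technical.

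TREM proteins are surface receptors of myeloid cells with an immunoglobulin-like outer domain. Most of them have no signalling tail and pass their signal to the adaptor DAP12 (gene Tyrobp), whose ITAM motif, once phosphorylated by Src-family kinases, recruits the kinase SYK. In the osteoclast lineage DAP12 signalling co-stimulates the RANK receptor, and TREM2 is the best known receptor upstream of it. TREM1 amplifies inflammatory responses of neutrophils and monocytes, and TREM3 is a DAP12-coupled receptor that mice have and humans keep only as a pseudogene. TREML4 is found on splenic dendritic cells, marginal-zone macrophages and a class of monocytes, binds dead cells and strengthens responses through the RNA sensor TLR7. TREML1 is best known from platelets and TREML2 from B cells and macrophages.

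The 250 bases before the RefSeq start site (build GRCm38.p6, all on the plus strand) are shown for Treml4 and Trem1, the genes with the highest read ratios between groups, and for Trem2, whose groups overlapped. Sequences were found for 4 of the 6 members. In the Treml4 window the capitals mark a 40-base stretch that stands at positions -225 to -186 and again, identical, at -134 to -95 from the start site. In the Trem1 window they mark a match to a gamma-activated site. In the Trem2 window they mark matches to a PU.1 box and to TGANTCA, an AP-1 pattern with its middle base left free.
Treml4 (chr17:48264045-48264294): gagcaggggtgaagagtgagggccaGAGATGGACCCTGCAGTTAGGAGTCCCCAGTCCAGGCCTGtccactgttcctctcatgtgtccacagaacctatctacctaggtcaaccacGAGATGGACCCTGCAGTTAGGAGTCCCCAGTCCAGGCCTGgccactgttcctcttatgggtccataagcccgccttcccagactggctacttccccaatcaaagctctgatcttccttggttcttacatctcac
Trem1 (chr17:48232489-48232738): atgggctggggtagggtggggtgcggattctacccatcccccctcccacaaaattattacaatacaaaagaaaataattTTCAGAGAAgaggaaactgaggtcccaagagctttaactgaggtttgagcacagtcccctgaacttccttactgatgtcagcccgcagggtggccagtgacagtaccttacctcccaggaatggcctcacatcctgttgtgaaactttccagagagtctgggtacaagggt
Trem2 (chr17:48346151-48346400): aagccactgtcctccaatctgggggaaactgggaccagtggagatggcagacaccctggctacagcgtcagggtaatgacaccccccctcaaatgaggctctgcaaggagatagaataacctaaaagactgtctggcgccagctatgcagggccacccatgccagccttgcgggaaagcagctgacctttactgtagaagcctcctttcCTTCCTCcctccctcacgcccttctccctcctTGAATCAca

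A direct repeat of 40 or more bases was present in 90 of 32851 windows of the same length in the RefSeq table, or 0.274%. In Trem1 and Trem2 the longest direct repeat had 9 and 8 bases. Both strands were searched for 6 motifs: an interferon-stimulated response element (in 2.98% of all windows), a gamma-activated site (TTCNNNGAA, 7.02%), an AP-1 site (TGANTCA, 6.75%), a PU.1 box (GAGGAAG, 10.6%), a C/EBP site (TTGCNNAA, 9.56%) and an E-box (CACGTG, 6.02%). None of the 6 stood in the Treml4 window. The Trem1 window held the gamma-activated site at -171 to -163. The Trem2 window held the PU.1 box at -41 to -35 and the AP-1 pattern at -9 to -3, with no overlap between matches. In the AP-1 match the free middle base was A (TGAATCA). The Treml1 window, not shown, held an E-box at -69 to -64. These matches describe the letters only.

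All 6 members had reads in all 6 libraries. Levels are given in FPKM, fragments scaled to exon length and to the gene-assigned total of the library, as the authors deposited them; those totals ran from 13742913 to 16264432 reads. Treml4 (ENSMUSG00000051682, 48264295 to 48275360 on the GRCm38 build of chromosome 17) stood at 0.263, 0.536 and 0.0345 FPKM in RANKL replicates 1, 2 and 3 and at 7.95, 8.93 and 8.005 FPKM in etelcalcetide replicates 1, 2 and 3. The RANKL values came from 8, 17 and 1 reads and the treated ones from 245, 245 and 260 reads, so the groups lay far apart. Relative to their level the RANKL libraries varied far more than the treated ones. Summed over libraries and adjusted for depth, the reads were 29.0 times as many with etelcalcetide, with a 95% exact interval of 19.6 to 44.7 that covers counting error only. The fitted log2 fold change of FPKM + 0.1 was 4.67 (SE 0.465), the 3rd highest of 11120 genes tested. The size depended on the constant added to the low RANKL values: it was 2.84 with 1 FPKM and 5.39 with 0.01 FPKM. Whether more cells carried the transcript or each cell carried more of it cannot be told apart in bulk RNA, for this and every gene below.

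Trem1 (ENSMUSG00000042265, 48232768 to 48246924) was the rarest of the members that could be tested. It stood at 0.109, 0.0420 and 0.115 FPKM in RANKL replicates 1, 2 and 3 (5, 2 and 5 reads) and at 1.06, 1.07 and 1.13 FPKM in etelcalcetide replicates 1, 2 and 3 (49, 44 and 55 reads). Every treated library lay above every RANKL library, at a level that remained low. The depth-adjusted read ratio was 12.4 (95% exact counting interval 6.89 to 24.5), and the fitted log2 fold change 2.62 (SE 0.240). With 1 FPKM as the added constant the log2 fold change was 0.92, and with 0.01 FPKM it was 3.50.

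Trem3 (ENSMUSG00000041754, 48247777 to 48258841), which lies between Trem1 and Treml4, was well expressed in both groups. It measured 7.12, 5.26 and 6.85 FPKM in RANKL replicates 1, 2 and 3 and 16.4, 13.0 and 12.3 FPKM in etelcalcetide replicates 1, 2 and 3. The treated values were all above the RANKL values, and the etelcalcetide replicate 1 value was the highest of the 6. Its log2 fold change was 1.03 (SE 0.135), and its read ratio was 2.18 (1.89 to 2.51).

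Trem2 (ENSMUSG00000023992, 48346401 to 48354147), the receptor tied to osteoclast formation, had 11.5, 12.9 and 13.6 FPKM in RANKL replicates 1, 2 and 3. It had 12.03, 12.9 and 13.5 FPKM in etelcalcetide replicates 1, 2 and 3. The ranges of the groups overlapped almost fully. The log2 fold change was -0.063 (SE 0.0774) and changed sign, to 0.013, with library totals in place of the scaling factors. With 2861 and 2874 reads per group, Trem2 had the narrowest counting interval of the members, 0.958 to 1.06 around a read ratio of 1.01.

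Treml1 and Treml2 were too low to be tested, since neither reached 0.5 FPKM in any library. For Treml2 (ENSMUSG00000071068, 48299498 to 48312533) there were 3, 5 and 9 reads in the RANKL replicates and 18, 14 and 27 reads in the treated ones. Its FPKM values went from 0.0400, 0.0640 and 0.126 to 0.237, 0.207 and 0.338, without overlap, and its read ratio was 3.49 (2.01 to 6.38). For Treml1 (ENSMUSG00000023993, 48359916 to 48367176) there were 8, 3 and 4 reads in the RANKL replicates and 5, 5 and 6 reads in the treated ones. The RANKL values of Treml1, 0.374, 0.135 and 0.196 FPKM, spanned the treated ones of 0.231, 0.260 and 0.263 FPKM, and at this depth no difference was detectable (read ratio 1.07, 0.496 to 2.33).

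**Figure D1:**
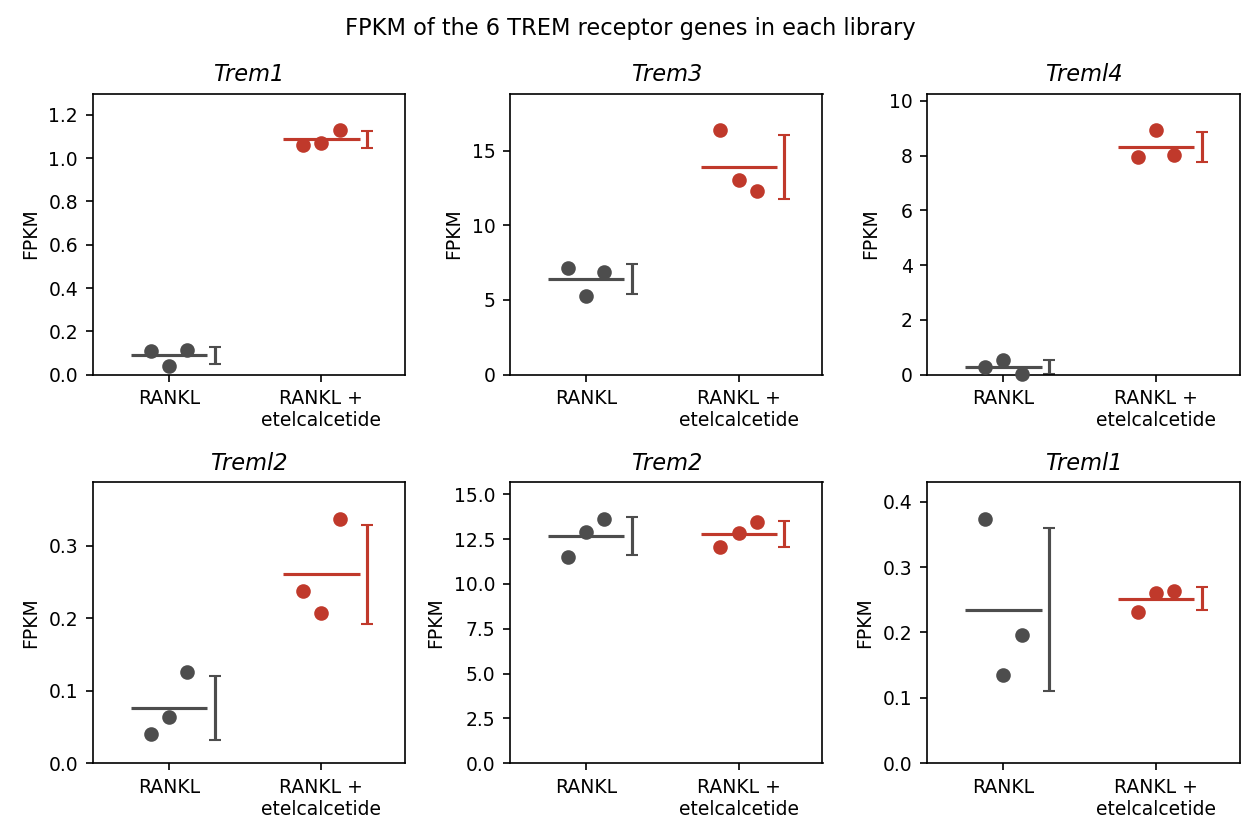
FPKM (linear axes from 0, a separate scale per gene) of the 6 genes in 3 RANKL libraries (grey) and 3 libraries with RANKL and etelcalcetide (red). Points are libraries, horizontal lines group means and error bars 1 SD; Trem1, Trem3, Treml4 and Treml2 have all treated points above all RANKL points, and Trem2 and Treml1 overlap.

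**Figure D2:**
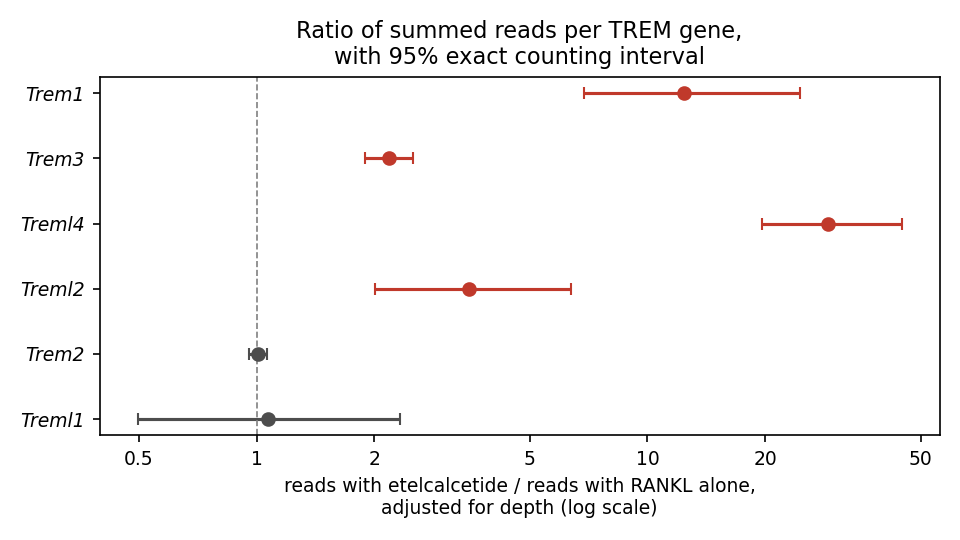
Depth-adjusted ratio of reads summed over 3 libraries per group (horizontal log axis, treated over RANKL) for each gene, with 95% exact intervals that cover counting error only. Treml4 is farthest to the right at 29.0, and the intervals of Trem2 and Treml1 include 1; red marks genes whose groups do not overlap.

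Of the 6 members, 4 passed the filter on low values, and 3 of these were called higher at an adjusted p under 0.05 in the fit over all genes (limma with Benjamini-Hochberg adjustment). Over all tested genes, 26.3% were called higher, 26.7% lower and 53.0% either way. Since the set was assembled from this contrast, and Treml4 and Trem1 would not have passed the filter on the RANKL libraries, nothing is read from that count. The values of 4 members lay above those of the RANKL group in every treated library, and the same held for 36.7% of tested genes and for 22.4% of genes with any read. Just inside the filter was Trem1, with 1.09 ± 0.0373 FPKM in the treated group (mean ± SD, n = 3), and just outside was Treml2, with 0.261 ± 0.0683 FPKM.

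The order of the levels depended on the length that each gene's reads were divided by. With the merged exon length behind the deposited FPKM, the RANKL group had Trem2 at 12.7 ± 1.08 and Trem3 at 6.41 ± 1.01 FPKM (mean ± SD, n = 3), and then Treml4, Treml1, Trem1 and Treml2 between 0.278 and 0.0767 FPKM. Among those last 4, every Treml1 value lay above every Trem1 and Treml2 value, at 2 to 9 reads per library, and the other neighbours in the order overlapped. In the treated group Trem3 stood at 13.9 ± 2.17 FPKM and Trem2 at 12.8 ± 0.712 FPKM, which overlapped, followed by Treml4 at 8.30 ± 0.548 and Trem1 at 1.09 ± 0.0373 FPKM. Treml2 and Treml1, at 0.261 ± 0.0683 and 0.251 ± 0.0175 FPKM, did not separate.

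For Trem2 the merged length is 4946 bases, because the annotation includes a retained-intron transcript of 4784 bases beside the principal transcript of 1088 bases. The tables do not say which transcript the reads came from. If the principal transcript lengths are used, Trem2 had 57.6 ± 4.89 FPKM in the RANKL group and 58.1 ± 3.24 FPKM with etelcalcetide, against 6.41 ± 1.01 and 13.9 ± 2.17 FPKM for Trem3, whose only annotated transcript has 994 bases. Treml4 would have 9.50 ± 0.627 FPKM with etelcalcetide on that scale, since its lengths differ little (1997 and 1744 bases). The length cancels in the ratio of reads, so the read ratios given above hold on both scales. The FPKM values do not, nor do fold changes of FPKM + 0.1.

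**Figure D3:**
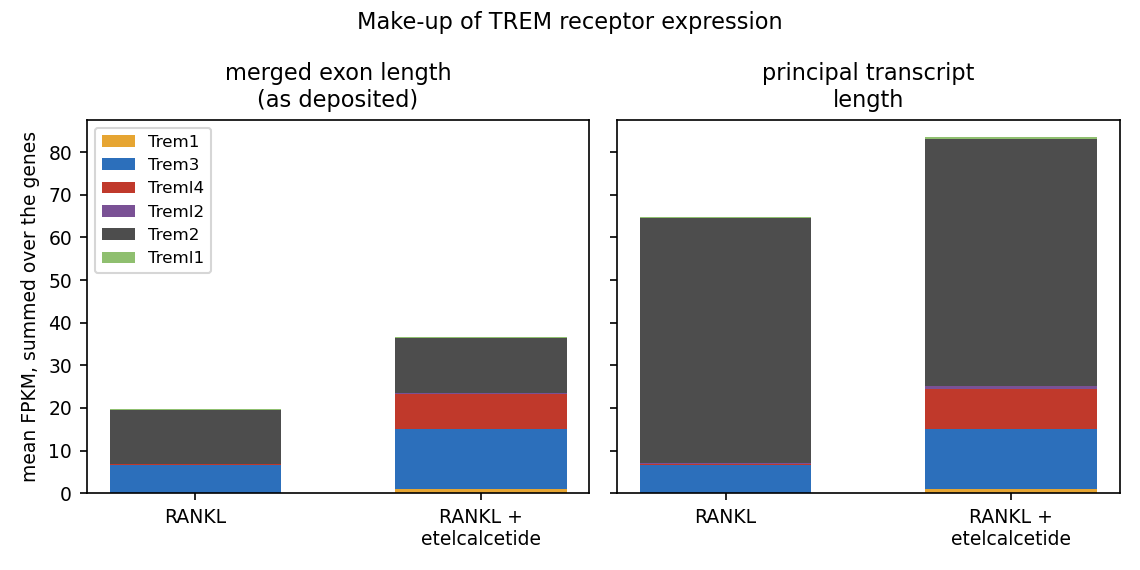
Mean FPKM of the 6 genes stacked per group (vertical axis from 0, n = 3 libraries per bar), with the merged exon length (left) and with the principal transcript length (right). The blue and red parts, Trem3 and Treml4, are larger in the treated group in both panels, and the dark grey part, Trem2, is alike between groups and much larger on the right.

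On the deposited scale the summed level of the 6 genes was 19.8 ± 1.06 FPKM in the RANKL group and 36.6 ± 1.21 FPKM with etelcalcetide. Treml4 made up 1.45 ± 1.34% of that sum in the RANKL group and 22.7 ± 1.79% in the treated group. Trem2 made up 64.1 ± 4.48% and 35.0 ± 3.08%, while its own level overlapped between groups. Trem3 made up 32.4 ± 4.44% and 37.9 ± 4.63%. These shares follow from the values that chose the set and carry no test.

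In the genome the 6 genes lie on the plus strand within 134409 bases, in the order Trem1, Trem3, Treml4, Treml2, Trem2 and Treml1. Between Treml2 and Trem2 lies B430306N03Rik, for which RefSeq gives Treml6 as another name; it was picked out after its values were seen, and it had 8 reads in the RANKL group and 35 with etelcalcetide, too few to test (read ratio 4.40, 95% exact counting interval 2.004 to 11.0). Of the genes on the far side of Trem1, 9830107B12Rik and A530064D06Rik, also named Trem5 and Trem4 in RefSeq, had 0 reads in all libraries. Within 250 kb of the cluster, 18 other genes are annotated, 12 of them without a read, and 2 could be tested. Oard1, an ADP-ribose hydrolase, fell from 11.9 ± 0.692 to 10.5 ± 0.679 FPKM (-0.26 on the log2 scale with SE 0.0722, adjusted p = 0.0138 by limma), although the deposited values of the groups overlapped. Nfya, a subunit of the CCAAT-binding factor, stood at 27.1 ± 0.569 and 31.1 ± 0.937 FPKM and did not pass (limma adjusted p = 0.0668). Its deposited values were nevertheless higher in every treated library than in every RANKL library, which held for 36.7% of tested genes.

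No exon of a member overlaps an exon of another gene. In addition, 0 of the 50-base words of the members' transcripts stand in an annotated transcript of another gene, read in either direction.

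**Figure D4:**
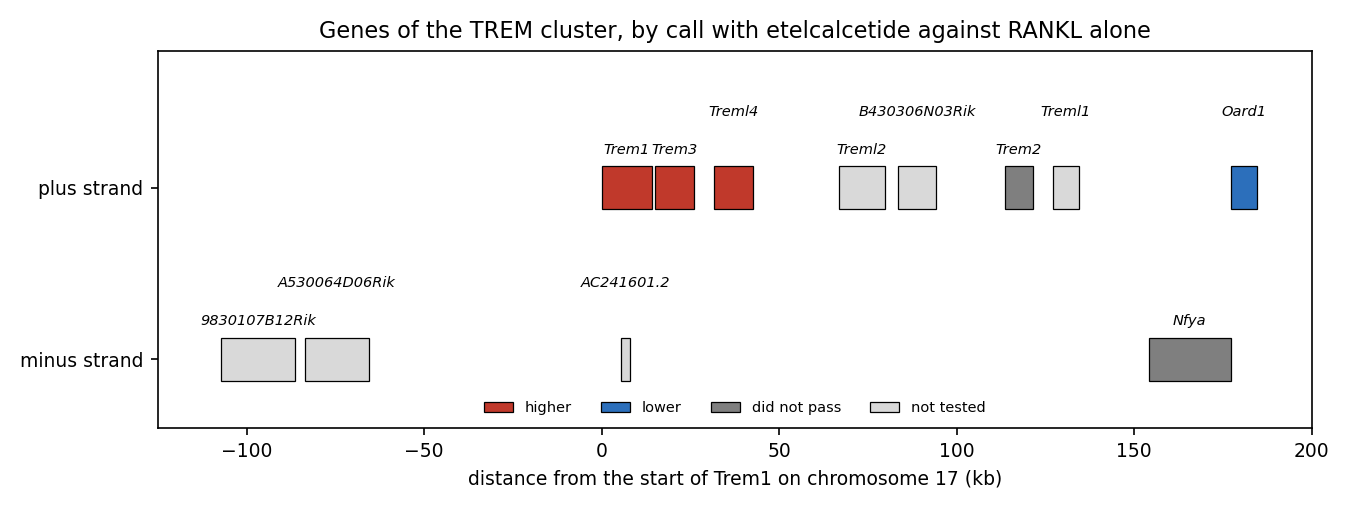
Genes of the cluster drawn to scale by distance from the start of Trem1 (kb) and strand, with the nearest neighbours, among them B430306N03Rik, the pseudogene AC241601.2, A530064D06Rik and 9830107B12Rik. Red boxes were called higher with etelcalcetide, blue lower, dark grey did not pass and light grey were not tested; Trem1, Trem3 and Treml4 are red.

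Tyrobp, the DAP12 adaptor through which most of the receptors signal, was among the abundant transcripts. It had 382, 402 and 451 FPKM in RANKL replicates 1, 2 and 3. It had 370, 379 and 401 FPKM in etelcalcetide replicates 1, 2 and 3. The groups overlapped in these deposited values. The fit divided them by factors of 0.969 to 0.982 in RANKL libraries and 1.01 to 1.04 in treated ones, which moved the groups apart. The call of a lower level (-0.18 on the log2 scale with SE 0.0663, adjusted p = 0.0487 by limma) was lost under 8 of 14 alternatives, with adjusted p from 0.0144 to 0.258; among these were library totals alone and leaving out any library but RANKL replicate 1. Hcst, the related adaptor DAP10, stood at 4.56 ± 1.30 and 4.30 ± 0.512 FPKM and did not pass (limma adjusted p = 0.601). Syk, the kinase that binds phosphorylated ITAMs, rose from 15.2, 15.0 and 16.7 FPKM in RANKL replicates 1, 2 and 3 to 20.4, 22.3 and 23.1 FPKM in the treated replicates (0.41 on the log2 scale with SE 0.0684, adjusted p = 0.00111 by limma).

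Further genes of TREM signalling were taken from 8 lists, chosen with earlier results of these libraries known. Of their 131 genes, 111 could be tested, and 46 were higher and 37 lower with etelcalcetide, 74.8% in all against 53.0% of all tested genes. Among all tested genes 26.3% were higher and 26.7% lower. Their median log2 fold change was 0.12, and that of all tested genes -0.0074. The DAP12 and ITAM signalling list had 14 of 28 tested genes higher, 8 lower and 6 that did not pass (median 0.17). The Src-family kinase Fgr rose from 11.5 ± 0.890 to 33.3 ± 2.18 FPKM (log2 fold change 1.45, limma adjusted p = 1.88e-06), while Src itself fell from 8.27 ± 1.30 to 2.17 ± 0.324 FPKM (log2 fold change -1.95, limma adjusted p = 1.32e-05). Pik3cd, a catalytic subunit of PI 3-kinase in white blood cells, rose from 20.2 ± 0.530 to 32.9 ± 1.07 FPKM. Blnk, an adaptor downstream of SYK, fell from 14.8 ± 0.567 to 8.96 ± 0.649 FPKM.

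Of the 10 brakes on ITAM signalling, 4 were higher and 2 lower (26.3% and 26.7% of all tested genes). The other 4 did not pass, and the median was 0.16. The adaptors Dok3 and Dok2, which dampen signalling of myeloid receptors, fell by 0.58 and 0.42 on the log2 scale. Csk, the kinase that silences Src-family kinases, rose from 72.2 ± 4.66 to 93.7 ± 3.53 FPKM, and Ptpn11, the phosphatase SHP2, from 22.1 ± 0.209 to 27.6 ± 0.485 FPKM (limma adjusted p = 0.00186 and 0.00279).

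Genes on the list of TREM ligands and partners moved in both directions. Of 9 tested, 3 were higher and 4 lower (26.3% and 26.7% of all tested genes), and 2 did not pass (median -0.052). Among proteins reported to bind TREM2, Apoe, the lipid carrier apolipoprotein E, fell from 7.51 ± 1.13 to 2.07 ± 0.206 FPKM (log2 fold change -1.88, limma adjusted p = 6.32e-06). Clu, the lipoprotein clusterin, rose from 0.134 ± 0.0499 to 2.08 ± 0.442 FPKM (limma adjusted p = 1.43e-05). Pglyrp1, a peptidoglycan-binding protein reported as a TREM1 ligand, went from 5 to 60 reads and from 0.0597 ± 0.0211 to 0.727 ± 0.159 FPKM (limma adjusted p = 0.000138). Clu and Pglyrp1 passed the filter on low values through the treated group alone, which fixed the direction of their calls. Gas6, also on the list, is a ligand of TAM receptors that bridges them to dead cells. It fell from 5.74 ± 0.129 to 0.573 ± 0.110 FPKM (log2 fold change -3.20, limma adjusted p = 5.72e-07).

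TREM2 and TREM1 are cut from the surface by ADAM proteases, and the remaining stub of TREM2 is cut by gamma-secretase. Of 11 tested genes of this shedding list, 6 were higher and 2 lower (26.3% and 26.7% of all tested genes). The other 3 did not pass, and the median was 0.33. Both proteases fell: Adam17 from 43.6 ± 3.08 to 30.9 ± 0.650 FPKM (log2 fold change -0.57, limma adjusted p = 0.000112) and Adam10, named after its value was seen, from 84.6 ± 20.2 to 57.6 ± 3.49 FPKM (log2 fold change -0.61, limma adjusted p = 0.00599). Rhbdf2, which carries ADAM17 to the surface, rose from 6.01 ± 0.496 to 11.5 ± 0.319 FPKM. Ncstn, a subunit of gamma-secretase, rose from 22.5 ± 0.960 to 30.7 ± 0.156 FPKM. Exons of Adam17 and Ncstn overlap those of other genes over 4.35% and 4.91% of their length. The sources used here do not give the strandedness of the libraries.

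The TLR7 pathway, in which TREML4 has been placed, had 6 of 13 tested genes higher and 3 lower (26.3% and 26.7% of all tested genes). The other 4 did not pass, and the median was 0.16. Tlr7 itself fell from 25.9 ± 5.83 to 11.4 ± 0.622 FPKM (-1.24 on the log2 scale with SE 0.135, adjusted p = 0.000111 by limma), so its level was lower in the group in which Treml4 was high. The transcription factors downstream of it were higher, Irf7 at 4.76 ± 0.702 and 34.7 ± 1.85 FPKM (limma adjusted p = 2.39e-07) and Irf5 at 52.0 ± 3.09 and 105 ± 2.03 FPKM, the latter overlapping another gene over 14.1% of its exon bases. Unc93b1, the chaperone that brings TLR7 to endosomes, rose from 76.8 ± 4.11 to 112 ± 4.87 FPKM.

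Other paired receptors of myeloid cells also moved both ways. Of 9 tested activating receptors, 4 were higher and 4 lower (26.3% and 26.7% of all tested genes), with a median of 0.012. Oscar, the osteoclast receptor that signals through the Fc receptor gamma chain, had 310 reads in the RANKL group and 0 with etelcalcetide, which makes it at least 103-fold lower when the treated group as a whole is set to a floor of 3 reads. Oscar passed the filter on low values through the RANKL group alone, which fixed the direction of its call. Clec4e, a lectin that senses microbial lipids and dead cells, rose from 3.95 ± 0.297 to 10.0 ± 0.323 FPKM and Cd300ld from 34.8 ± 1.27 to 57.0 ± 2.49 FPKM, while Clec5a, a DAP12-coupled lectin, fell from 22.5 ± 3.24 to 14.4 ± 0.547 FPKM. Of 13 tested genes on the list of inhibitory receptors, 4 were higher and 5 lower, against the same shares of all tested genes. The other 4 did not pass (median 0.14). Whether each listed gene, Cd33 among them, acts as an inhibitory receptor in these mouse cells was not tested. Clec4a2 fell from 8.51 ± 0.822 to 1.12 ± 0.329 FPKM, Cd33 from 16.4 ± 1.62 to 5.24 ± 1.02 FPKM and Clec12a from 30.3 ± 2.36 to 19.8 ± 0.800 FPKM, and Cd300lf rose from 0.756 ± 0.0601 to 2.01 ± 0.222 FPKM (limma adjusted p from 4.39e-06 to 0.000145).

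Genes induced along with Trem2 in microglia near brain lesions, a list that also holds Tyrobp, had 12 of 21 tested genes lower, 5 higher and 4 that did not pass (median -0.18), where 26.7% of all tested genes were lower and 26.3% higher. With library totals alone 9 were lower and 6 higher. Cst7, the protease inhibitor cystatin F, fell from 12.3 ± 0.725 to 0.312 ± 0.0168 FPKM (log2 fold change -4.98, limma adjusted p = 2.74e-08), and Gpnmb, a lysosomal glycoprotein, from 66.0 ± 8.34 to 4.52 ± 1.08 FPKM (log2 fold change -3.94, limma adjusted p = 5.72e-07). Spp1, which encodes osteopontin, fell from 529 ± 32.8 to 192 ± 1.35 FPKM, where 18.8% of its exon bases overlap another gene, and Fabp5, a fatty acid carrier, fell from 9.04 ± 0.852 to 2.50 ± 0.284 FPKM. Cst7, Gpnmb and Spp1 are also abundant in osteoclasts, and the osteoclast markers beside them had 8 of 12 tested genes lower and 0 higher (26.7% and 26.3% of all tested genes), with a summed level of 1643 to 1811 FPKM in the RANKL libraries and 746 to 835 FPKM in the treated ones. The part of that shift in the microglial list was not tested. Cst7, and Oscar among the osteoclast markers, passed the filter on low values through the RANKL group alone, which fixed the direction of their calls.

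**Figure D5:**
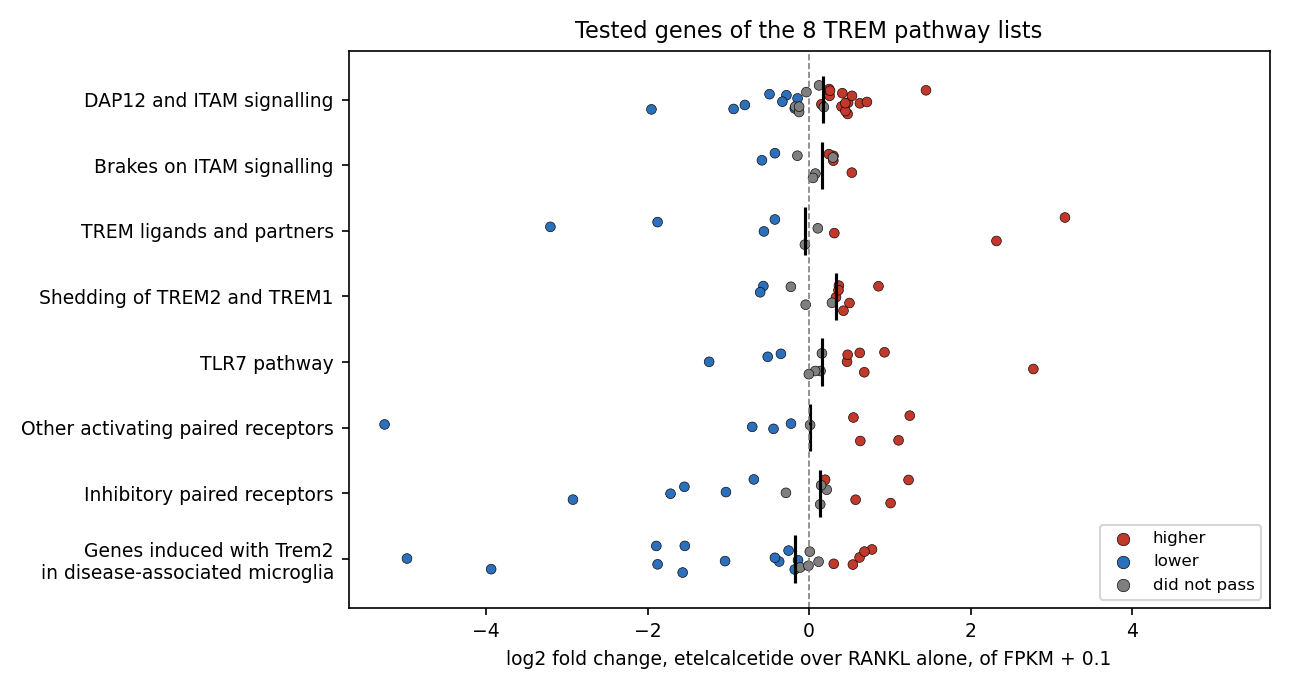
Log2 fold change of FPKM + 0.1 (horizontal axis, etelcalcetide over RANKL alone) of each tested gene in the 8 lists, with 1 point per gene and a black bar at the list's median. Red points were called higher, blue lower and grey did not pass; points lie on both sides of 0 in every list, and the leftmost is Oscar, which had 0 treated reads.

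The genes whose pattern over the 6 libraries was most like that of Treml4 (Pearson r of log2(FPKM + 0.1), a description over points that share libraries and groups) were Crybg2, Syt11, Stim2, Ap1s3 and Anxa7, with r from 0.995 to 0.997. In all, 595 genes reached 0.95; points from separated groups give a high r for any gene that differs between them. For Trem1 and Trem3 the r with Treml4 was 0.92 and 0.86, and for Trem2 it was -0.42. Trem2 was most like Eef2, Coa6, Iah1, Coq10b and Cyth4, with r from 0.975 to 0.997, and 15 genes reached 0.95. The values of Eef2, translation elongation factor 2, were 1779, 1932 and 2038 FPKM in RANKL replicates 1, 2 and 3 and 1863, 1962 and 2023 FPKM in etelcalcetide replicates 1, 2 and 3. Exons of Coa6, Iah1 and Coq10b overlap those of other genes over 7.14% to 14.1% of their length.

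Markers of other cell types that carry TREM receptors were low. Of 12 neutrophil markers, 7 had 0 reads in all libraries, among them S100a9, Ly6g and Mpo, and their summed level was 1.59 to 2.34 FPKM in the RANKL libraries and 1.599 to 1.96 FPKM in the treated ones. Of 8 B cell markers, 5 had 0 reads, Ms4a1 included, with sums of 0.130 to 0.432 and 0.567 to 0.984 FPKM. Of 11 platelet markers, 3 had 0 reads, and the sums were 0.9002 to 1.35 and 3.29 to 3.87 FPKM. The platelet chemokine Pf4 rose from 0.425 ± 0.134 to 2.49 ± 0.211 FPKM (limma adjusted p = 4.16e-05). Pf4 passed the filter on low values through the treated group alone, which fixed the direction of its call. Macrophage markers summed to 2901 to 3068 and 3344 to 3524 FPKM, with 6 of 10 tested genes higher and 1 lower, against 26.3% and 26.7% of all tested genes. The lower one, named after its value was seen, was Mpeg1, the pore-forming protein perforin-2 (log2 fold change -0.96). The part of these markers in the levels of the TREM genes was not tested.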

How the data were processed

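Total RNA of 6 libraries (3 per group) was sequenced. The authors deposited 1 table of FPKM per library. The submitters' processing notes list Trimmomatic 0.38, the aligner HISAT2 2.1.0, the read counter featureCounts 1.6.0, DESeq2 1.22.1, CASAVA and quality reports, without saying what each was used for. Those notes name the build GRCh38, but all 55536 IDs matched mouse GENCODE M21 (GRCm38). FPKM times merged exon length gave whole reads for 100% of values, within 0.01 reads.

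FPKM values were divided by trimmed-mean factors (trimming 30% of M and 5% of A values; 0.969 to 1.04), raised by 0.1 FPKM and log2-transformed, and the fit was made with limma 3.58.1 in R 4.3.3, with group as the only term, a mean-dependent prior and Benjamini-Hochberg adjustment. Tested genes had 0.5 FPKM and 10 reads in at least 3 libraries (2 when a library was left out). Some genes, among them Clu, Pglyrp1, Pf4, Ccr7, Cst7 and Oscar, passed through a single group, which fixed the direction of their calls. The fit was tested on simulated data. Printed FPKM are the deposited values, before scaling. Read ratios are adjusted for library totals only. Tables were handled with Python 3.11.15 and pandas 2.3.3.

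Members and lists were chosen with earlier results of these data known. Named genes were the members, Tyrobp, Hcst and Syk, up to 4 called genes per list with the smallest adjusted p, called neighbours, and the 5 genes most like Treml4 and Trem2; others are said to be named after their values were seen. A gene that this rule names is not reported here.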

Additional observations from a re-analysis of the deposited data

How the results depend on the processing

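The 14 alternatives were the scaling, added constant, filter, replicate block, limma-voom on recovered reads, which was chosen after seeing the data, and leaving out each library. For the members, chosen on this contrast, they describe how far the values move and support nothing. The log2 fold change of Treml4 ranged from 4.05, without RANKL replicate 3, to 5.19, without RANKL replicate 2. Of the other alternatives only the added constant moved it by more than 1.5 times. For Trem1 and Trem3 the range when a library was left out was 2.43 to 2.73 and 0.90 to 1.12. Over all genes 5895 were called, 2923 higher and 2972 lower, and the number ranged from 4840 to 6222 when a library was left out. With library totals alone 5830 were called, 3558 higher and 2272 lower, so 61.0% of calls were higher against 49.6%. Among the list genes, 75 to 82 were called when a library was left out and 77 to 84 otherwise. The number of list genes tested was 111 in the main fit and could differ where the filter or the libraries did. Fcer1g, the Fc receptor gamma chain, named after its value was seen, was called higher by 0.15 (limma adjusted p = 0.0198) but kept the call under 10 of 14 alternatives. Among the 8 lists, 1 count moved by more than 1.5 times: inhibitory receptors had 3 lower, not 5, with a filter of 1 FPKM. The level of Trem2 over that of Trem3 was 1.98 in the RANKL group and 0.919 in the treated group, and 8.99 and 4.18 with principal transcript lengths, chosen after seeing the data.

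Same-numbered libraries of the groups did not deviate together over the tested genes (r across genes of 0.075, -0.019 and -0.030). With 3 libraries per group this cannot exclude pairing, and the sample labels give same-numbered libraries the same days of exposure. With the replicate block 5716 genes were called, 2812 higher and 2904 lower. The 2 planned count models on recovered reads were not run, and limma-voom was the only fit made on those reads. Depth limits Treml1, Treml2 and B430306N03Rik, and the RANKL values of Treml4 and Trem1, where 1 read was a sizeable part of many values. The RANKL values of Treml4 came from 8, 17 and 1 reads and those of Trem1 from 5, 2 and 5 reads.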

Other observations

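Treml4 is known from dendritic cells and from non-classical monocytes, whose other markers are given here as values. Of 11 dendritic cell markers only 3 could be tested, of which 2 were called higher (26.3% of all tested genes) and 1 did not pass. Ccr7, the receptor that leads dendritic cells to lymph nodes, rose from 12 to 1433 reads, or 0.136 ± 0.106 to 16.1 ± 3.25 FPKM (n = 3, limma adjusted p = 1.62e-06), and Zbtb46, a factor of classical dendritic cells, rose from 0.594 ± 0.0766 to 2.15 ± 0.177 FPKM. Ccr7 passed the filter on low values through the treated group alone, which fixed the direction of its call. The genes that define the dendritic cells in which Treml4 was described stayed near 0: Clec9a had 0 and 4 reads in the RANKL and treated groups, Cd8a 0 and 1, Flt3 0 and 5, and Xcr1 10 and 7, all named after their values were seen.

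Of 9 tested markers of non-classical monocytes, 5 were higher and 3 lower, where 26.3% and 26.7% of all tested genes were. Itgal, an integrin chain of monocytes and lymphocytes, rose from 2.32 ± 0.125 to 26.5 ± 1.36 FPKM (log2 fold change 3.39, limma adjusted p = 2.74e-08). Spn, which encodes CD43, rose from 5.90 ± 0.637 to 16.3 ± 0.935 FPKM, and Nr4a1, a nuclear receptor that these monocytes need, from 1.91 ± 0.382 to 8.16 ± 1.03 FPKM. Cx3cr1, the fractalkine receptor that is high on the same cells, went down from 43.6 ± 3.03 to 25.8 ± 1.66 FPKM (adjusted p = 3.14e-05 by limma), while Ear2 had 0 reads. The relation of these markers to Treml4 was not tested.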
